A study of Mus musculus with 8 samples.

Results

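Interferon-stimulated genes were followed in the adipose fraction of mouse dorsal skin after the hair was plucked with wax. The set holds 39 genes, chosen because the gene name on the array design equals a name on the list, among non-control spots. All 39 were found, on 52 probes, among 34790 gene names in all. Cy3-labelled total RNA of female C57BL/6 mice was read on Agilent one-colour arrays, with 1 array for each of 8 groups. The groups were shaved skin, sampled straight after shaving, and skin taken 12 h after plucking and on days 1, 2, 4, 6, 10 and 50. The labelled age was 10 weeks for the groups through day 4 and for shaved skin, 11 weeks for day 6 and day 10, and 17 weeks for day 50, although the treatment protocol gives 7 to 8 weeks for mice with resting follicles. The design text adds that fur growth had been synchronised by an earlier wax stripping in all groups, and describes the material as fat together with dermis. Whether a sample came from 1 mouse or a pool is not given in the sources used here.

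Interferons are secreted proteins that cells release on sensing foreign or misplaced nucleic acid. Type I interferon binds the receptor chains Ifnar1 and Ifnar2, the kinases Jak1 and Tyk2 pass the signal on, and a complex with Stat2 and Irf9 binds a DNA element called the interferon-stimulated response element. The genes switched on there block viral replication, sense RNA, present antigen and restrain the signal itself. Interferon gamma acts on another element, the gamma-activated site, and drives guanylate-binding proteins, the immunoproteasome and Irf1 in particular. Uninfected tissue keeps a basal level of these genes, and macrophages are among the cells that express them strongly.

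The response element is the DNA through which type I interferon acts on such genes, so its matches in their promoters are shown here. RefSeq promoter windows of the GRCm38.p6 build, 250 bases before to 50 bases after an annotated start, were matched for 30 of the 39 genes. The core, GAAA followed by any 2 bases and GAAA again, searched on both strands with overlapping matches counted, occurred in 14 of those 30 genes, or 46.7%, against 1079 of 27025 genes of the table, or 3.99%. The farthest upstream match of each gene is given below with its neighbouring bases, 5′ to 3′ on the gene's own strand, with the core or its reverse complement in capitals.
Bst2, chr8:71537588-71537607, minus strand: tccagGAAAATGAAActgaa
Ddx58, chr4:40239809-40239828, minus strand: ggcagTTTCGATTTCctatg
Eif2ak2, chr17:78882540-78882559, minus strand: gccggGAAAACGAAAcagaa
Gbp2, chr3:142620599-142620618, plus strand: tttagTTTCACTTTCactgt
Gbp3, chr3:142559994-142560013, plus strand: cacagTTTCAGTTTCtattt
Ifih1, chr2:62646209-62646228, minus strand: gaatcGAAACAGAAAccgat
Ifit1, chr19:34640780-34640799, plus strand: ttcagTTTCACTTTCcagtc
Ifit3, chr19:34583368-34583387, plus strand: gtaagTTTCACTTTCctctt
Isg15, chr4:156200882-156200901, minus strand: cgtagGAAAAGGAAAccgaa
Oas1a, chr5:120907531-120907550, minus strand: ctcggGAAATGGAAActgaa
Oas1g, chr5:120887617-120887636, minus strand: ctcggGAAATGGAAActgaa
Oas3, chr5:120777720-120777739, minus strand: gaggaGAAAACGAAAgtgaa
Rsad2, chr12:26456558-26456577, minus strand: ccaacTTTCATTTTCagaaa
Stat2, chr10:128270271-128270290, plus strand: cctggTTTCAGTTTCctttc
The core was present in 9 of the 14 antiviral effectors with a window, in both guanylate-binding genes and in 1 of 4 transcription factors. In the group of RNA sensors and Trim25, 2 of 3 genes with a window had it, Ddx58 and Ifih1 but not Trim25. None of the 3 antigen-processing genes had it, and that says only that these letters are not in these windows. The sites of Oas1a and Oas1g, near-identical neighbours, were the same over all 20 bases. The gamma-activated site TTCNNNGAA was found in 7 of the 30 genes, or 23.3%, against 9.55% of genes of the table.

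Whole windows are printed for 3 genes that differ in their levels over time: Isg15, which held overlapping cores with first bases from -78 to -66 of the start, Irf7, the gene furthest below shaved skin, and Trim25, which stood near its shaved level on its brighter probe. Irf7 and Trim25 had no core in the window. Capitals again mark the core.
Isg15, chr4:156200769-156201068, minus strand: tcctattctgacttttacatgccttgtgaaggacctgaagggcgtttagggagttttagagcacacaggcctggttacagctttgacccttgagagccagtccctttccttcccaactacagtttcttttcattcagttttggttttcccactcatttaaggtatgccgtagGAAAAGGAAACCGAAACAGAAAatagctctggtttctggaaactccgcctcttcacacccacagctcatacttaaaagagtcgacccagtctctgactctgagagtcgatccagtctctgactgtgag
Irf7, chr7:141266375-141266674, minus strand: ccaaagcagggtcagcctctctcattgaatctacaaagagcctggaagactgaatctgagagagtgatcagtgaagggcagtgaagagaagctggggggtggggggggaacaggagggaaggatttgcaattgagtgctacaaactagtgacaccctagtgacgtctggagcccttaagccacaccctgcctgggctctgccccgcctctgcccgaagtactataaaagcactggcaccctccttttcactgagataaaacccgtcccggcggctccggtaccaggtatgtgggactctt
Trim25, chr11:88999153-88999452, plus strand: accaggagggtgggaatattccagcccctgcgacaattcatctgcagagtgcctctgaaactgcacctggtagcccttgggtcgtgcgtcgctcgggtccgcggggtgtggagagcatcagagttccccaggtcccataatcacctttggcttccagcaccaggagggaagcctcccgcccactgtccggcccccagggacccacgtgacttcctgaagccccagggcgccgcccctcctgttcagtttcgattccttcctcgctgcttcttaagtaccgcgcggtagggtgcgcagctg

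Levels are given as log2 signal relative to the 75th percentile of the same array, so 0 is the signal below which 75% of probes lie. On the 8 arrays 72.9% to 81.2% of spots were well above background and none was saturated. All 8 arrays lay on 1 slide. The SD of repeated spots of a probe had a median of 0.055 to 0.088 (log2), and the SD between different probes of a gene for the same difference had a median of at most 0.174. That median, 0.174, is called the spread between probes below. The 90th percentile of the SD between probes was 0.429 to 0.511, and a gene with 1 probe has no known spread of its own. Both SDs describe measurement on these arrays and neither covers differences between mice, so no p-value is given and a difference is described by its size alone. All 7 differences from shaved skin share 1 shaved array, and all differences from day 50 share 1 array. All 12 adipocyte markers, among them Adipoq and Plin1, were well above background on every array, with a summed level of 766 to 1676 times the 75th percentile. In bulk tissue, fewer cells of a type and less RNA per cell cannot be told apart.

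Interferon-stimulated genes stood lower in plucked than in shaved skin, with the widest gap on day 2 and day 4. Their median log2 difference from shaved skin was -0.65 at 12 h, -0.65 on day 1, -1.39 on day 2, -1.49 on day 4, -0.18 on day 6, -0.57 on day 10 and -0.80 on day 50. Over all genes measured the median lay between -0.13 and 0.02 at these times. All 39 genes were below shaved skin on day 2, on day 4 and on day 50, against 26 of 39 on day 6. The share of all genes below shaved skin was not counted. Their median was 0.008 on day 2, -0.132 on day 4, -0.085 on day 6 and -0.01 on day 50.

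Counted by a 2-fold threshold, 7 of the 39 genes were lower than in shaved skin at 12 h, where 3.36% of all genes were. On day 1 the count was 10, against 3.21% of all genes, and 6 with normexp background correction. It was 26 on day 2, against 3.57% of all genes, and 33 on day 4, against 6.62%. On day 6 no interferon-stimulated gene was 2-fold lower, where 2.12% of all genes were, and the count was 4 on day 10 (2.29% of all genes) and 13 on day 50 (4.41%). No gene of the set was 2-fold higher at any time. Of all genes 3.9% were 2-fold higher at 12 h, 2.67% on day 1, 2.56% on day 2, 5.89% on day 4, 4.24% on day 6, 3.76% on day 10 and 2.72% on day 50. All 39 passed the background filter at each time, 38 of them on all 8 arrays. Oas1g was well above background only in shaved skin, at 12 h and on day 6, so it was at least 1.14-fold lower on day 2 and at least 1.40-fold lower on day 4, and without it past the threshold the counts were 25 and 32.

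**Figure D1:**
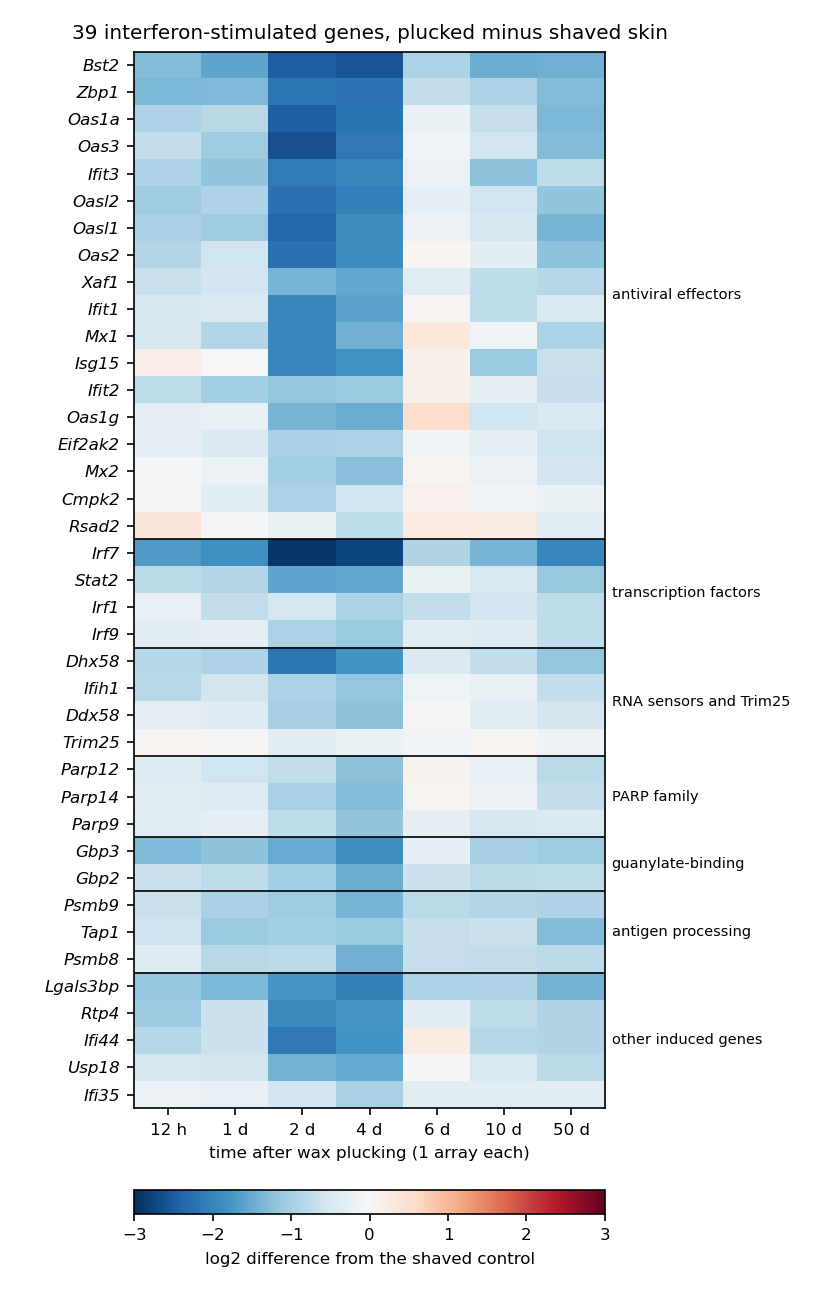
Log2 difference of each of the 39 interferon-stimulated genes (rows, grouped by role and sorted by mean within a role) from shaved skin at 7 times after plucking (columns, 1 array each). Blue is below shaved skin and red above: the day 2 and day 4 columns are the darkest, with Irf7 at -2.93 on day 2, and the day 6 column is the palest.

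Shaved skin gave the highest level for 25 of the 39, the day 6 array for 11, and the 12 h array for 3, which were Rsad2, Isg15 and Trim25. The lowest level was on day 4 for 20 genes, on day 2 for 18, and on day 50 for Tap1. Among all 26135 genes well above background on every array, 13.3% were highest in shaved skin, 5.0% on day 6 and 9.11% at 12 h. Of the same genes 25.8% were lowest on day 4, 4.98% on day 2 and 14% on day 50. On day 6, 15 of the 39 genes were within 0.174 of shaved skin, against 0 on day 2 and on day 4. The share of all genes within that distance was not counted.

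Set against the day 50 array instead of shaved skin, the median gene was lower on day 2 and day 4 and higher at the other times. The median difference from day 50 was 0.27 at 12 h, 0.19 on day 1, -0.46 on day 2, -0.65 on day 4, 0.61 on day 6 and 0.35 on day 10, while over all genes it lay between -0.13 and 0.02. On day 2, 12 of 38 genes measured were 2-fold lower than on day 50, against 2.23% of all genes, and with normexp background correction 5 were. On day 4 4 of 38 were, against 5.52%. On day 6 all 39 genes were above the day 50 level and 7 were 2-fold higher, against 6.59% of all genes. The share of all genes above the day 50 level was not counted. No gene of the set was 2-fold higher on day 2 or day 4 (3.61% and 6.85% of all genes) or 2-fold lower on day 6 (4.16%). At 12 h, on day 1 and on day 10 none was 2-fold away either way. Of all genes 3.45%, 2.68% and 6.09% were lower at those times and 4.98%, 4.01% and 6.48% higher. On day 2 and day 4, 35 of the 39 lay below both shaved skin and day 50, as did 20.6% of the 26135 genes above background throughout. The 4 others were Irf1, Parp12, Rsad2 and Tap1. The day 50 array itself stood below shaved skin by 0.80.

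**Figure D2:**
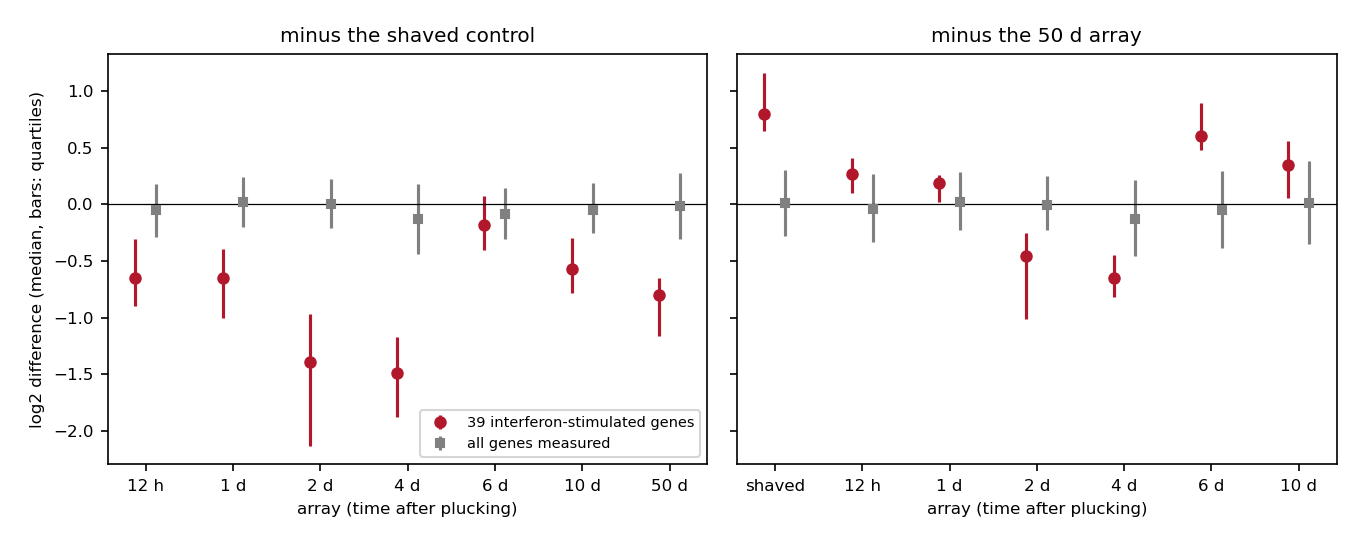
Median log2 difference of the 39 interferon-stimulated genes (red circles) and of all genes measured (grey squares) from the shaved array (left) and from the day 50 array (right); bars span the quartiles over genes, with 1 array per time. The red medians sit below 0 at all times on the left, and below 0 only on day 2 and day 4 on the right.

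The antiviral effectors, a list of 18 genes that mostly act on viral RNA, proteins or particles and that also holds Cmpk2, Xaf1 and Zbp1, had a median difference from shaved skin of -0.69 at 12 h, -0.71 on day 1, -1.96 on day 2, -1.71 on day 4, -0.01 on day 6, -0.58 on day 10 and -0.81 on day 50. On day 2 and on day 4 15 of the 18 were 2-fold lower, Oas1g included, against 3 at 12 h and 0 on day 6. The oligoadenylate synthetases make short oligoadenylates that activate RNase L. Oas3 had log2 levels of -0.65 in shaved skin, -1.37 at 12 h, -1.71 on day 1, -3.29 on day 2, -2.80 on day 4, -0.77 on day 6, -1.22 on day 10 and -1.94 on day 50. Its day 2 level was 2.64 below shaved skin and its day 6 level 0.12 below, within the spread between probes.

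Oas1a had log2 levels of 4.66 in shaved skin, 3.73 at 12 h, 3.84 on day 1, 2.21 on day 2, 2.48 on day 4, 4.46 on day 6, 3.98 on day 10 and 3.30 on day 50. Oas2 was 2.24 below shaved skin on day 2. A second probe of Oas1a gave -2.37 on day 2, close to the -2.45 of the first. Since Oas1a and Oas1g share sequence, a probe may bind transcripts of either. The 4 Oas genes of the set lie together at chr5:121180343-121346794 (mm9, probe positions), and on day 2 they were between 2.64 and 1.38 below shaved skin, the smaller value being that of Oas1g on a dim array.

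Oasl1 and Oasl2, related oligoadenylate synthetase-like genes, sit at chr5:115362168-115387920 (mm9). Oasl2 had log2 levels of 4.04 in shaved skin, 2.97 at 12 h, 3.12 on day 1, 1.81 on day 2, 2.00 on day 4, 3.75 on day 6, 3.44 on day 10 and 2.87 on day 50. For Oasl1 they were 3.52 in shaved skin, 2.54 at 12 h, 2.46 on day 1, 1.16 on day 2, 1.64 on day 4, 3.35 on day 6, 3.02 on day 10 and 2.14 on day 50. Both were more than 2 log2 units below shaved skin on day 2 and within 0.30 of it on day 6.

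The IFIT proteins bind viral RNA and hold back its translation, and their 3 genes lie at chr19:34650244-34723855 (mm9). Ifit3 had log2 levels of 3.56 in shaved skin, 2.64 at 12 h, 2.37 on day 1, 1.43 on day 2, 1.60 on day 4, 3.38 on day 6, 2.33 on day 10 and 2.79 on day 50. On day 2 it was 2.13 below shaved skin, Ifit1 1.95 below and Ifit2 1.16 below. On day 6 all 3 were between -0.18 and 0.16 of shaved skin, and Ifit3 stood 1.24 below it again on day 10.

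Bst2, or tetherin, anchors budding virus to the cell membrane. Its log2 levels were 5.35 in shaved skin, 4.04 at 12 h, 3.77 on day 1, 2.88 on day 2, 2.76 on day 4, 4.40 on day 6, 3.86 on day 10 and 3.91 on day 50. No plucked array reached the shaved level: the difference was -2.58 on day 4, -0.95 on day 6, and -1.44 on day 50. Zbp1, a sensor of Z-form nucleic acid, had log2 levels of 2.50 in shaved skin, 1.17 at 12 h, 1.19 on day 1, 0.33 on day 2, 0.30 on day 4, 1.75 on day 6, 1.55 on day 10 and 1.20 on day 50.

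Isg15, a ubiquitin-like protein that is joined to other proteins, had log2 levels of 3.26 in shaved skin, 3.46 at 12 h, 3.26 on day 1, 1.31 on day 2, 1.46 on day 4, 3.42 on day 6, 2.14 on day 10 and 2.58 on day 50. Its course was flat through day 1 and then stood 1.95 below shaved skin on day 2, and a second probe gave -1.98. It was the gene with the largest difference between day 2 and day 1, at -1.95. Mx2, a dynamin-like GTPase, had log2 levels of 0.17 in shaved skin, 0.13 at 12 h, -0.01 on day 1, -0.86 on day 2, -1.08 on day 4, 0.24 on day 6, -0.01 on day 10 and -0.41 on day 50. The difference of Mx2 at 12 h was -0.03, within the spread between probes, and on day 4 it was -1.25. Its relative Mx1 was 1.96 below shaved skin on day 2.

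Rsad2, or viperin, an enzyme that makes a chain-terminating nucleotide, was the effector nearest to shaved skin on day 2. Its log2 levels were 0.95 in shaved skin, 1.30 at 12 h, 0.89 on day 1, 0.73 on day 2, 0.18 on day 4, 1.25 on day 6, 1.19 on day 10 and 0.64 on day 50. It was the highest of the 39 genes relative to shaved skin at 12 h, at 0.36, and its lowest value was -0.77 on day 4. Its neighbour Cmpk2, which supplies nucleotides and lies with it at chr12:27127859-27164178 (mm9), was 0.95 below shaved skin on day 2, where Rsad2 was 0.22 below. Eif2ak2, the kinase PKR that halts translation, had log2 levels of 0.54 in shaved skin, 0.25 at 12 h, 0.11 on day 1, -0.43 on day 2, -0.42 on day 4, 0.46 on day 6, 0.27 on day 10 and -0.08 on day 50, a narrow range with its lowest values on day 2 and day 4. Rsad2, Cmpk2 and Eif2ak2 were the 3 of 18 effectors that were not 2-fold lower at any time. Xaf1, a partner of the apoptosis inhibitor XIAP, was 1.57 below shaved skin on day 4.

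**Figure D3:**
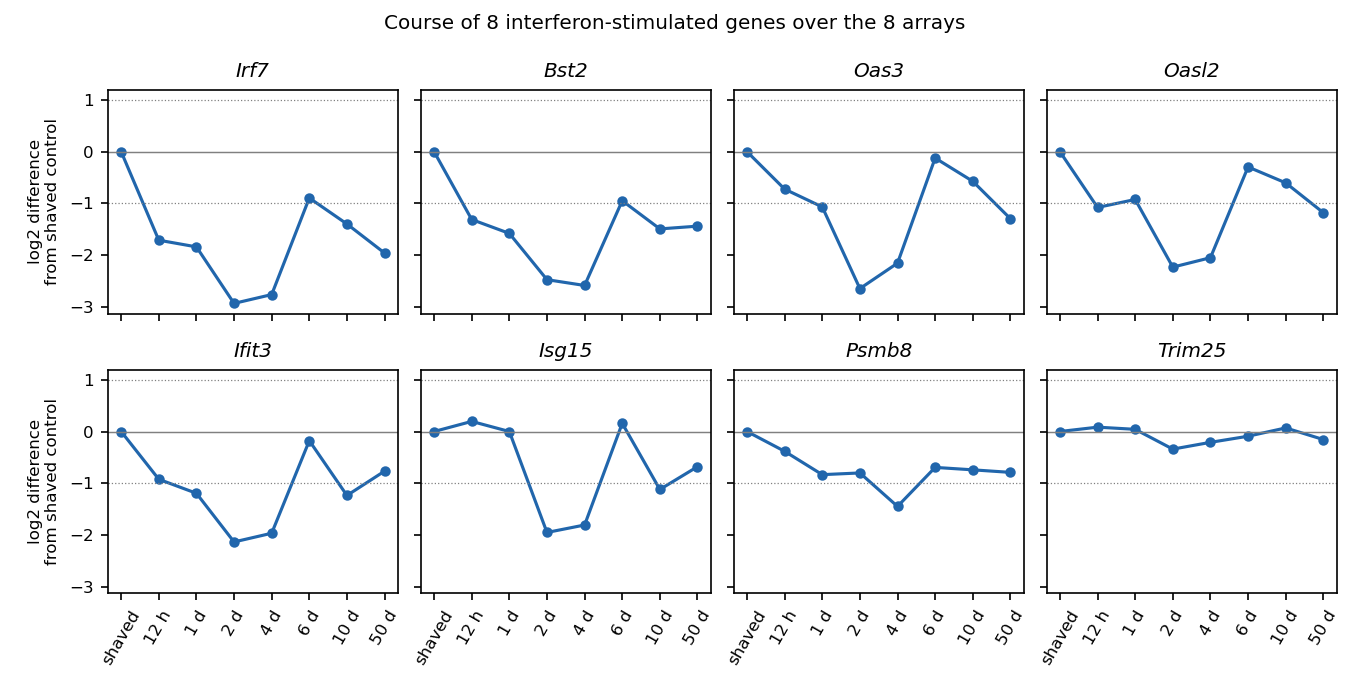
Log2 difference from shaved skin over the 8 arrays (x axis, shaved skin at 0 on the left, then time after plucking) for 8 genes, 1 array per point; dotted lines mark 2-fold. Irf7, Bst2, Oas3, Oasl2, Ifit3 and Isg15 pass the lower line on day 2, Psmb8 passes it only on day 4 (-1.45), and Trim25 passes neither line.

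Among the transcription factors, Irf7, which amplifies type I interferon production, was the gene furthest below shaved skin in the whole set. Its log2 levels were 1.41 in shaved skin, -0.30 at 12 h, -0.43 on day 1, -1.52 on day 2, -1.35 on day 4, 0.51 on day 6, 0.01 on day 10 and -0.55 on day 50. It was 2.93 below shaved skin on day 2, a 7.6-fold difference, and it was also the lowest of the 39 at 12 h and on day 1. Even on day 6 it lay 0.89 below, and on day 50 1.96 below.

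Stat2, Irf9 and Irf1 were lower by less. Stat2 and Irf9, partners in the complex that binds the response element, were 1.58 and 0.95 below shaved skin on day 2. Irf1, a factor driven mainly by interferon gamma, had log2 levels of 3.43 in shaved skin, 3.17 at 12 h, 2.68 on day 1, 2.91 on day 2, 2.47 on day 4, 2.70 on day 6, 2.86 on day 10 and 2.67 on day 50. Its largest difference was -0.96 on day 4, and unlike most of the set it was 0.73 below on day 6. A second Irf1 probe, well above background on only 6 arrays, did not follow. It was 0.94 above shaved skin on day 2 and 0.49 above on day 4. Its level in shaved skin was -5.38, beside 3.43 on the first probe, so these differences rest on dim signal.

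The cytosolic RNA sensors Ddx58, Ifih1 and Dhx58, known as RIG-I, MDA5 and LGP2, were 1.00, 0.96 and 2.18 below shaved skin on day 2. On day 6 they were between -0.44 and -0.07. A second Ifih1 probe gave a smaller day 2 difference of -0.27, and a second Ddx58 probe gave -0.98. Trim25, a ubiquitin ligase that acts with RIG-I, had log2 levels of 4.50 in shaved skin, 4.59 at 12 h, 4.55 on day 1, 4.16 on day 2, 4.29 on day 4, 4.41 on day 6, 4.57 on day 10 and 4.35 on day 50. On this probe its range over the 8 arrays was 0.42. A second Trim25 probe of like brightness ranged from 3.65 on day 4 to 4.78 on day 10. It gave -0.84 on day 4 where the first gave -0.21, so the values of Trim25 depend on the probe.

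The PARP genes, which attach ADP-ribose to proteins, were lowest on day 4, where Parp9, Parp12 and Parp14 were 1.18, 1.23 and 1.31 below shaved skin. A second Parp9 probe gave -0.02 there. On day 6 the 3 genes were between -0.29 and 0.11.

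Guanylate-binding proteins are large GTPases that attack vacuoles holding pathogens. Gbp3 had log2 levels of 2.82 in shaved skin, 1.497 at 12 h, 1.61 on day 1, 1.30 on day 2, 0.95 on day 4, 2.53 on day 6, 1.82 on day 10 and 1.75 on day 50. It was 1.32 below shaved skin at 12 h, among the lowest of the set at that time, and 1.87 below on day 4. Gbp2, its neighbour, was 1.49 below on day 4 and remained 0.64 below on day 6, where Gbp3 was 0.29 below.

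On the probes used, the antigen-processing genes stood below shaved skin on every plucked array. A second, dimmer Psmb9 probe was well above background on only 6 arrays. It gave -0.26 on day 2, -1.89 on day 4 and 0.21 on day 10, beside -1.06, -1.40 and -0.87 on the first. Psmb9 was lowest on day 4 and Tap1 on day 50. Psmb8 and Psmb9 are immunoproteasome subunits and Tap1 carries peptides into the endoplasmic reticulum, and their genes sit side by side at chr17:34319174-34337830 (mm9). Psmb8 had log2 levels of 3.50 in shaved skin, 3.11 at 12 h, 2.66 on day 1, 2.69 on day 2, 2.05 on day 4, 2.80 on day 6, 2.75 on day 10 and 2.71 on day 50. The median of the 3 genes was -1.05 on day 2 and -1.40 on day 4, and it was still -0.70 on day 6. On day 4 Psmb9 was 1.40 and Tap1 1.11 below shaved skin. All 3 were below shaved skin on day 6 by more than the spread between probes, as were 6 of the 18 antiviral effectors. With 1 array per group, no test of the difference between roles can be made.

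The other 5 genes had a median of -1.76 on day 2 and -1.78 on day 4. Lgals3bp, a secreted glycoprotein, had log2 levels of 6.33 in shaved skin, 5.18 at 12 h, 4.97 on day 1, 4.57 on day 2, 4.29 on day 4, 5.38 on day 6, 5.40 on day 10 and 4.90 on day 50, and a second probe gave -2.02 on day 4, beside -2.04. Ifi44 was 2.13 below shaved skin on day 2, Rtp4 1.92 below, and Usp18, a protease that removes Isg15 and damps receptor signalling, 1.41 below. Ifi35 had log2 levels of 1.67 in shaved skin, 1.497 at 12 h, 1.42 on day 1, 1.08 on day 2, 0.69 on day 4, 1.34 on day 6, 1.34 on day 10 and 1.33 on day 50, with a largest difference of -0.98.

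**Figure D4:**
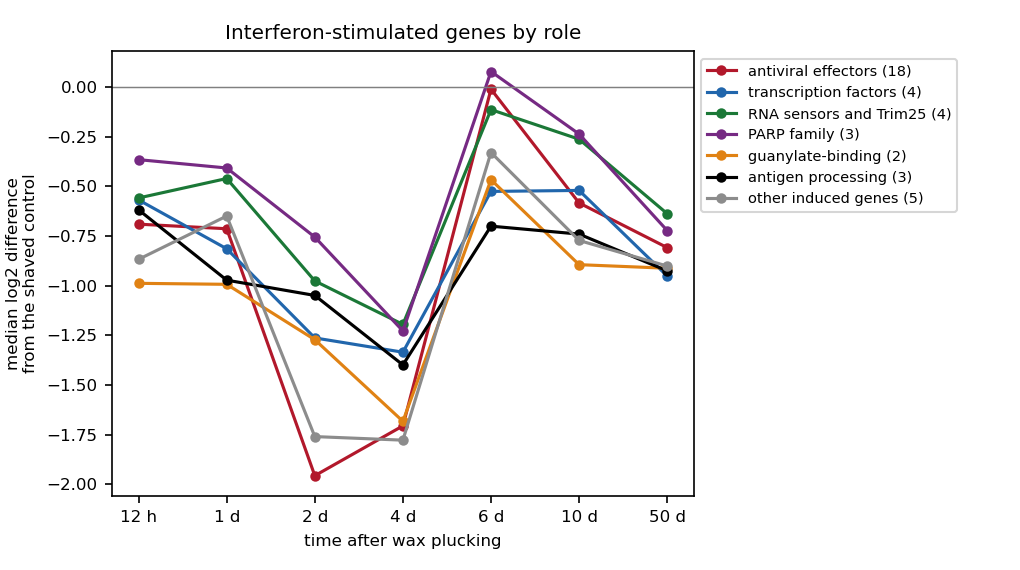
Median log2 difference from shaved skin of the interferon-stimulated genes by role (colours, number of genes in brackets) at 7 times after plucking, 1 array each. Antiviral effectors have the lowest point, -1.96 on day 2, and return to -0.01 on day 6, while the antigen-processing line stays at -0.70 on day 6.

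Neighbouring times were compared after the levels had been seen. The day 2 array minus the day 1 array gave a median of -0.67, and 12 of 38 genes measured were 2-fold lower, against 1.29% of all genes, with none 2-fold higher, against 1.04%. All 17 antiviral effectors measured were lower, by a median of 0.94, and the 3 antigen-processing genes had a median of 0.03. On day 6 all 39 genes were above their day 4 level, by a median of 1.35, and 28 were 2-fold higher, against 5.17% of all genes, with none 2-fold lower, against 2.61%. The median was 1.71 for the antiviral effectors and 0.60 for antigen processing, and Ifi44 had the largest difference, 2.03. Over all genes the median was -0.018 for day 2 minus day 1 and 0.03 for day 6 minus day 4. The share of all genes lower or higher by any amount was not counted.

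Genes with and without the response element core in the window both lay below shaved skin. Absence means only that these exact letters are not in the window, and near matches were not counted. The 9 genes with no matched window are in neither set. On day 2 the 14 genes with the core had a median of -1.55 and the 16 without it -1.06, and on day 4 the medians were -1.58 and -1.31. Each set held genes far below shaved skin, Oas3 at -2.64 with the core and Irf7 at -2.93 without it, and genes near it, Rsad2 at -0.22 with it and Trim25 at -0.34 without it, all on day 2.

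The ligands that start the pathway were low in signal, and those measured had medians near shaved skin on day 2 and day 4. The median level of the 15 interferon genes on the array was -2.74 in shaved skin, -2.61 on day 2 and -3.26 on day 4. Of these 15 genes, 13 were measured. Their median difference from shaved skin was -0.08 on day 2 and -0.30 on day 4, with none 2-fold lower or higher at either time. All 13 were below shaved skin on day 4, where the median of all genes was -0.13. Ifng was 0.84 below shaved skin on day 4 and 0.97 below on day 6, and Ifnk was 1.07 below on day 50. Ifne was not well above background on any array, and Ifnb1, interferon beta, was so only on day 4 and day 6, so neither gave a measured difference from shaved skin. In the receptor list Ifnar2 was 1.06 below shaved skin on day 4, Ifnar1 0.19 below, and Il28ra, the lambda interferon receptor chain of epithelial cells, was 1.60 above.

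The kinase Tyk2 was 1.12 below shaved skin on day 4. Among the other IRF genes Irf5 and Irf8, both of myeloid cells, were 1.71 and 1.34 below shaved skin on day 4. Irf3, which starts interferon transcription, was within 0.13 at all times. The nucleic acid sensing list had a median of -0.54 on day 4 with 2 of 12 genes 2-fold lower, Tmem173 (STING) at -1.16 and Ikbke at -1.12. Of 8 negative regulators 4 were 2-fold lower on day 2, Ptpn6, Trex1, Samhd1 and Adar, while Socs3 was 1.01 above.

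Other interferon-induced genes were also lower on day 2 and day 4. In a further list of 39, the median was -0.85 on day 2 and -1.14 on day 4, and 12 and 21 genes were 2-fold lower. The largest differences were those of Slfn1, -3.09 on day 2, Slfn4, -2.81 on day 2, Slfn2, -2.08 on day 4, and Oas1f, -1.90 on day 2, and Ifitm1 was 1.40 above shaved skin at 12 h. Of 17 GTPases induced mainly by interferon gamma, 11 were 2-fold lower on day 4, with Gbp1 at -2.80 and Gbp8 at -2.75. Of 13 MHC class I genes 7 were 2-fold lower on day 4 and none on day 2, H2-T23 being 1.53 below. For 7 MHC class II genes the median was -1.14 on day 2 and -1.36 on day 4.

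The 7 interferon-inducible chemokines had a median of 1.097 at 12 h, with 4 of them 2-fold higher than in shaved skin. Of all genes 3.9% were 2-fold higher at that time. Ccl5 was 2.07 above shaved skin, Cxcl10 1.34 above, Ccl12 1.27 above and Ccl7 1.097 above. Ccl2 was 0.72 above, while Cxcl9 was 0.94 and Cxcl11 0.09 below. On day 2 the median of the 7 chemokines was -1.04, with Cxcl10 1.30 below.

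Markers of other cell types differed between the same arrays. All 19 macrophage markers measured were well above background on every array, with a summed level of 749.9 times the 75th percentile in shaved skin, 466.4 at 12 h, 427.5 on day 1, 364.9 on day 2, 308.2 on day 4, 490.0 on day 6, 602.3 on day 10 and 388.6 on day 50. Their median difference from shaved skin was -0.77 at 12 h, -0.79 on day 1, -1.5 on day 2, -1.49 on day 4, -0.61 on day 6, -0.38 on day 10 and -1.05 on day 50, with 10 of 19 2-fold lower on day 2 and 15 on day 4. Siglec1, the macrophage sialic acid receptor that interferon also induces, was 3.24 below shaved skin on day 2, and Cd68 was 1.53 below. On day 6 the macrophage median was further below shaved skin than the -0.18 of the interferon-stimulated genes, and on day 10 it was nearer than their -0.57. On the day 6 array the macrophage markers were above their day 4 level by a median of 0.87, with 6 of 19 genes 2-fold higher. The part of macrophage content in the result was not tested.

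The 10 B cell markers had a median of 3.59 at 12 h and between -0.48 and 0.19 afterwards. T and NK cell markers had a median of 0.23 at 12 h, with 4 of 13 2-fold higher. Plasmacytoid dendritic cell markers, of the cells that make most type I interferon, had a median between -0.41 and 0.05 at all times, although Spib was 4.37 and Ccr9 1.09 above shaved skin at 12 h. On the same array Siglech was 0.10, Tcf4 0.17, Klk1 0.81 and Pacsin1 0.04 below shaved skin. Markers of other dendritic and Langerhans cells had a median of -0.37 on day 2, with Xcr1 not above background on most arrays, and neutrophil markers had a median of -0.01 on day 2. At 12 h the neutrophil median was 0.46, with S100a8 4.49, S100a9 4.27 and Cxcr2 3.14 above shaved skin. Ly6g (-0.41), Retnlg (-1.035), Mmp9 (-0.15) and Elane (-0.06) were below it on that array. Interfollicular keratinocyte markers were above shaved skin by medians of 2.08 on day 2 and 1.85 on day 4. For markers of the hair shaft and inner root sheath these medians were 3.03 and 5.58. Adipocyte markers had medians of 0.41 on day 2 and -0.75 on day 4, fibroblast markers -0.54 and -0.46, and endothelial markers 0.43 and -0.39. The part of these shifts in the result was not tested.

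**Figure D5:**
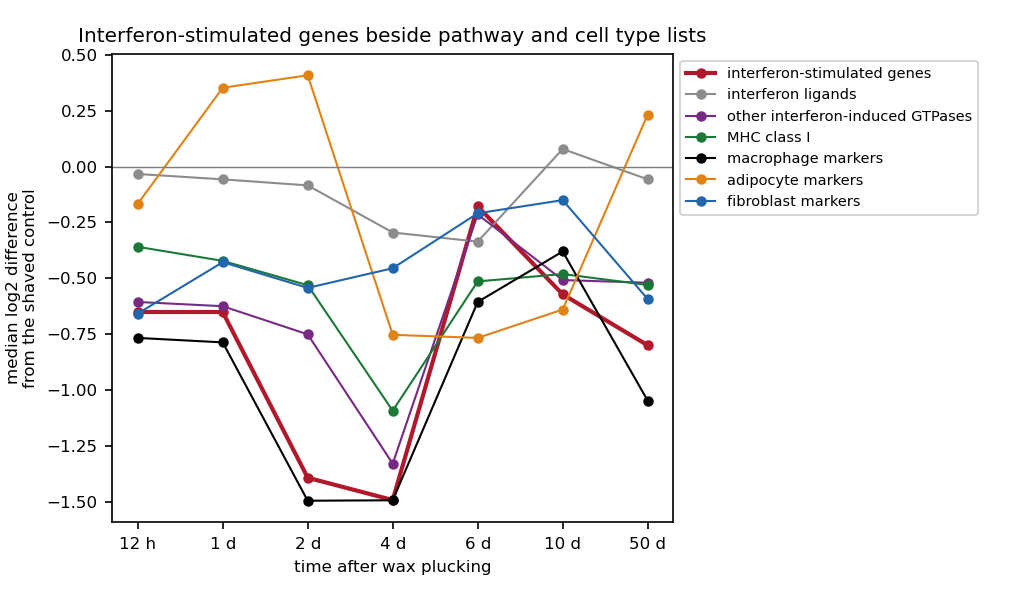
Median log2 difference from shaved skin at 7 times after plucking, 1 array each, for the 39 interferon-stimulated genes (thick red) and for lists of interferon ligands, interferon-induced GTPases, MHC class I genes and markers of macrophages, adipocytes and fibroblasts. The macrophage line lies near the red line on day 2 (-1.5 beside -1.39) and day 4, and the ligand line stays between -0.34 and 0.08.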

How the data were processed

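The members and gene lists were chosen with earlier results of these data known. Spot intensity values were deposited by the authors as scanner output, made with Agilent Feature Extraction 10.5.1.1. Per the file headers, background was subtracted, spatial and multiplicative detrending was applied, and dim spots carry a surrogate value; no normalization between arrays is recorded. Probe positions in the files are on mm9. Per the file headers the spike-in slope of the day 10 array was out of range.

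Control and outlier-flagged spots were left out, spots of a probe were averaged, and 55668 of 55681 probes were used. Log2 values of the deposited intensity were centred on the 75th percentile of each array. Where a gene had several probes, the one with the highest mean level was used. A gene was 2-fold apart where its log2 difference was at least 1 and any of its probes was well above background on the brighter array. The labels number 1 replicate per group, so no test was made, and differences describe single arrays.

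All 39 genes may be named. Levels on every array are given for the 10 genes with the largest mean difference from shaved skin, the 4 highest and 4 lowest at 12 h and the 4 with the smallest range, and for Psmb8, chosen after its values were seen. Genes of longer lists were mostly named by their largest differences on day 2 or day 4. The comparisons of day 2 with day 1 and of day 6 with day 4, and the genes named from them, were chosen after the levels were seen. As alternatives, arrays were quantile normalized or centred on the median of probes above background, normexp correction was run with an offset of 50, and the mean over probes was taken, with other background filters and with 1.5-fold and 3-fold thresholds besides. The counting of genes past the threshold was run on simulated data. These held planted differences larger than the threshold and only the noise of repeated spots. That run checks the counting step and does not cover the spread between probes or between mice. Promoter windows and their coordinates come from RefSeq on GRCm38.p6 and were not combined with mm9 positions. Python 3.11.15 with numpy 2.4.6, pandas 2.3.3 and matplotlib 3.10.9, and R 4.3.3 with limma 3.58.1, were used.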

Additional observations from a re-analysis of the deposited data

Results flagged for a closer look

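Of the 39 genes 14 stood above shaved skin at one time and below it at another, a share not counted for all genes. For 4 of them the level above exceeded 0.174, the median spread between probes. The level below was 2-fold or more for Mx1, Ifi44 and Isg15, while for Oas1g dim signal does not show it. The levels above of Mx1, Ifi44 and Isg15 lay within the 90th percentile of that spread, 0.435 on day 6 and 0.43 at 12 h. Mx1 was 0.308 above shaved skin on day 6 and -1.96 from it on day 2. Ifi44 was 0.246 above on day 6 and -2.13 on day 2. Isg15 was 0.196 above at 12 h and -1.95 on day 2. Oas1g was 0.529 above on day 6 and -1.49 on day 4, where it was not well above background. Its second probe, not well above background on any array, was -2.19 on day 6. Rsad2, 0.36 above at 12 h, was at its lowest -0.77 on day 4. The difference between the times was not tested for any of these genes, since each time has 1 array.

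The second probe of Irf1, which did not stand for the gene in the report's counts and medians, was 1.28 above shaved skin on day 10 and 1.09 above on day 50. The probe that stood for Irf1 was -0.56 and -0.76 from shaved skin at these times. The second probe was well above background on 6 of the 8 arrays. Its level in shaved skin, the reference of both differences, was only -5.38, so these values rest on dim signal.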

How the results depend on the processing

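No median and no 2-fold difference of any of the 39 genes changed sign under the alternatives that were run. The median difference from shaved skin on day 6 stayed between -0.18 and -0.13. With normexp correction the median of all genes on day 6 was -0.183 from shaved skin, in place of -0.085. The median of the set was then not clearly lower than that of all genes. With the mean over probes the day 2 median was -1.16 in place of -1.39, and 1 gene in place of 0 was 2-fold lower on day 6. With normexp correction 6 genes in place of 10 were 2-fold lower than shaved skin on day 1, and 5 in place of 12 were lower than day 50 on day 2. With quantile normalization 2 genes in place of 0 were 2-fold higher than day 50 on day 10. A 1.5-fold threshold gave 21 genes lower than shaved skin at 12 h, 23 on day 1, 9 on day 6, 19 on day 10 and 30 on day 50, where 10.1%, 8.22%, 8.15%, 6.88% and 12.6% of all genes were. Against day 50 it gave 3 higher at 12 h, 2 on day 1, 21 on day 6 and 7 on day 10 (11.3%, 10.3%, 13.7% and 16.2% of all genes), and 24 lower on day 4 (17.8%); 22 were lower on day 2 than on day 1 (4.31%). A 3-fold threshold left 1 gene lower than shaved skin at 12 h, 1 on day 1, 16 on day 2, 16 on day 4, 0 on day 10 and 1 on day 50. Of all genes 1.08%, 1.03%, 1.26%, 2.13%, 0.904% and 1.17% were. Against day 50 it left 0 lower on day 2 and on day 4 and 0 higher on day 6 (0.753%, 1.31% and 3.47% of all genes), with 3 lower on day 2 than on day 1 (0.335%) and 13 higher on day 6 than on day 4 (2.01%). A change of threshold alters these counts by construction; the cause of the other shifts was not tested. Normexp correction put the median of all genes on day 6 at -0.22 from day 50, in place of -0.05. Of the single-gene differences from shaved skin, 57 moved by more than the spread between probes and 1035 did not, over 39 genes, 7 times and 4 alternatives. No paired analysis was possible because each group has 1 array and every label gives replicate 1, and no replicate could be left out for the same reason. Dim signal limits Oas1g, the second Irf1 probe, Ifnb1 and Ifne, and 1 array a group leaves the spread between mice unmeasured.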
